A study of Mus musculus with 12 samples.

Results

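The genes described here are 31 lysosomal genes of the mouse, a list of acid hydrolases, lysosomal membrane proteins and the transcription factor Tfeb. The choice was by gene symbol and not by a rule on the measured values, but earlier results of these data were known. All 31 were found among the 48795 genes of the deposited tables through their Ensembl mouse identifiers on GRCm38. They were followed in NIH3T3, an immortalised line of mouse embryo fibroblasts, and in 3 clones of it, F5, G5 and H7, that carry a knockout of Aebp1, the gene of a secreted, collagen-binding protein. Libraries come from passages 6, 7 and 8 of the wild-type parental line and from passages 7, 8 and 9 of the clones. That gave 12 libraries of ribosome-depleted total RNA in 4 groups of 3. The culture medium was DMEM/F12 with added FBS (fetal serum) for all lines, which received no further treatment that the labels name. Each clone is 1 clone, and the parental line was not cloned, so that cloning and the knockout cannot be told apart. The labels do not say that the passages of a line were separate cultures, and p-values then measure the spread between these samples only.

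Lysosomes are acidic, membrane-bound compartments in which proteins, glycans and lipids taken up or delivered by autophagy are broken down. Most soluble lysosomal enzymes receive a mannose 6-phosphate tag in the Golgi that carries them to the lysosome, and fibroblasts also secrete a share of them and take them up again. Membrane proteins such as LAMP1 and LAMP2 line the compartment, a proton pump acidifies it, and TFEB and its relatives TFE3 and MITF switch on many lysosomal genes through E-box sites with the core CACGTG.

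Library totals lay between 22088714 and 31329755 estimated counts. Aebp1 stood at 553 ± 76.6 CPM in the parental line and at 193 ± 19.9, 128 ± 8.46 and 147 ± 14.4 CPM in F5, G5 and H7 (mean ± SD, n = 3 each), so the transcript was lower but still present in the clones. CPM are counts per 1000000 counts of a library after TMM scaling, which evens out differences in composition between libraries. All 11 fibroblast markers passed the filter on low counts, with a summed level of 24314 to 30829 CPM over the libraries. In the mean of the clones 6 of the 11 were called lower and 0 higher, where 10.5% of all genes tested were lower and 8.55% higher. The 10 leukocyte markers summed to 3.90 to 6.85 CPM. The macrophage gene Adgre1 and the leukocyte adaptor Tyrobp had 0 counts in every library, and the other 8 had counts in some. Of the 10, 3 passed the filter (Ptprc, Cd14 and Csf1r). Of these, 1 was called in the mean of the clones: Ptprc was lower, at a log2 fold change of −2.28 (SE 0.55). The 6 osteoclast markers, which matter for cathepsin K, summed to at most 0.179 CPM. Epithelial markers summed to at most 0.308 CPM in the parental line, F5 and G5 and to 0.626 to 1.03 CPM in H7, and endothelial markers to at most 1.19 CPM in any library. Measurements of bulk RNA cannot tell fewer cells of a kind from less RNA per cell.

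The fibroblasts expressed most of the list. Of the 31 members, 27 passed the filter, and 4 cysteine cathepsins did not. Ctsc, which activates granule proteases of immune cells, and Ctsh, an aminopeptidase, had 0 counts in all 12 libraries, which allows up to 0.00976 CPM (3 counts over all libraries together, counting error only). Ctss, a cathepsin of antigen-presenting cells, had 3 counts in total. Ctsf had 10, of which 8 were in the parental line. The counts below are over the other 27.

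Levels of different genes were compared in TPM, which accounts for transcript length. In the parental line the highest member was Psap, which encodes the precursor of the saposins, the small cofactors of sphingolipid breakdown, at 537 ± 51.5 TPM (n = 3). Lamp1, a major protein of the lysosomal membrane, followed at 241 ± 6.64 TPM and lay below Psap in every parental library. Then came the aspartic protease gene Ctsd at 208 ± 30.4 TPM, the cysteine protease gene Ctsl at 168 ± 27.4 TPM and Lamp2 at 124 ± 19.7 TPM, and each of these overlapped the next in its parental values. Ctsb, another broad cysteine protease gene, stood at 87.9 ± 21.8 TPM, below every value of Lamp2. The lipid-transfer protein gene Npc2, the protective protein gene Ctsa and the acid alpha-glucosidase gene Gaa followed at 78.7, 71.5 and 63.3 TPM and overlapped one another. At the low end of the genes tested stood Tfeb at 6.51 ± 1.9 TPM, the sulfatase gene Sgsh at 6.23 ± 1.32, the sialidase gene Neu1 at 6.2 ± 1.63 and Ctsk, a collagen-degrading cathepsin, at 5.17 ± 0.508 TPM, with overlapping values. Of the other neighbours in this order, Gaa and Hexa, Ctsz and Mcoln1, Ctsk and Ctsf, and Ctsf and Ctss (0 TPM in every parental library) did not overlap either.

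The summed level of the 31 genes was 1946 ± 166 TPM for parental cells, 2000.0 ± 208 for F5, 2010.3 ± 188 for G5 and 2083 ± 79.5 for H7 (mean ± SD, n = 3 each). These 4 ranges overlapped. Within the parental line, F5 and G5 the middle passage held the highest sum, at 2116, 2216 and 2156 TPM, against 1785 and 1938, 1801 and 1982, and 1798 and 2077 TPM in the outer passages. In H7 the sums were 2152.5, 2100.3 and 1996 TPM from the first to the third passage. Psap alone made up 26.5% to 28.8% of the sum of a library.

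**Figure D1:**
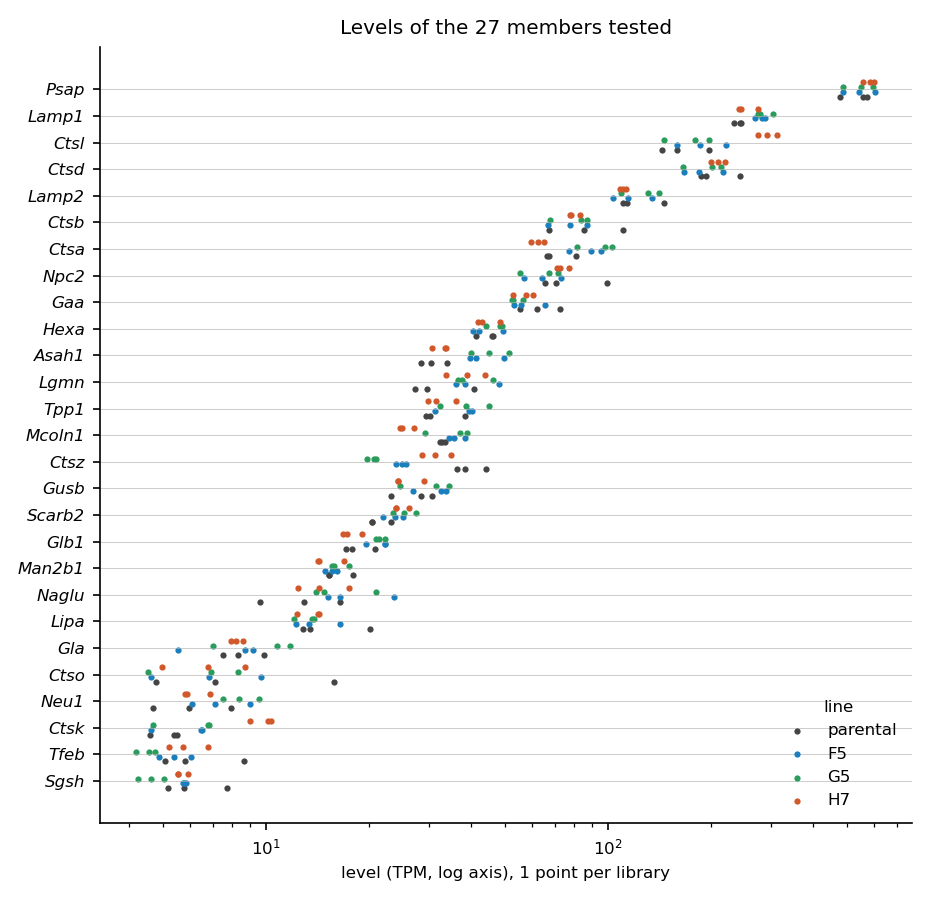
Level of each of the 27 members tested, in TPM on a log axis, with 1 point per library coloured by line. Psap is the highest member in all lines and Ctsk and Tfeb are among the lowest; for most members the 4 lines overlap.

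The mean of the 3 clones was compared with the parental line to ask which members change together with the knockout. Asah1 and Scarb2 rose and Ctsz fell, which makes 2 higher and 1 lower of 27 at an adjusted p under 0.05 in edgeR's quasi-likelihood test (Benjamini-Hochberg adjustment over all genes, written BH below). Over all 14704 genes tested, 19.0% were called in this comparison, 8.55% higher and 10.5% lower. The median log2 fold change was 0.02 over the members and −0.02 over all genes. By role, 1 of 6 cysteine cathepsins and legumain fell, 1 of 4 lipid-handling members rose, and 1 of 4 membrane proteins rose. None of the 3 aspartic and serine peptidases, none of the 9 glycosidases and sulfatase and not Tfeb was called. With the order of passages as a block, 12 of 27 were called, 4 glycosidases and sulfatase among them (Gaa, Naglu, Neu1 and Sgsh), where 33.4% of all genes were called. Without the block, the members not called had log2 fold changes from −0.41 (Ctso) to 0.42 (Ctsk).

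Ctsz was the member that fell in each clone. It encodes cathepsin Z, a cysteine carboxypeptidase, and lies on chromosome 2 between 174427493 and 174439039 on the minus strand of GRCm38 (ENSMUSG00000016256). The parental libraries held 31, 34.4 and 29.5 CPM in the order of passages, the F5 libraries 19, 20.2 and 19.9, the G5 libraries 16.1, 16.5 and 14.5 and the H7 libraries 24.4, 27.9 and 23.7 CPM. All 9 clone libraries lay below all 3 parental ones, with G5 lowest, then F5, then H7, and no overlap between the lines. Among the 27 members it alone showed such a gap, and no member lay above, against 5.16% of all genes below and 5.49% above. The log2 fold change for the mean of the clones was −0.67 (SE 0.07, BH-adjusted p = 0.000128). By clone it was −0.68 (SE 0.09, BH-adjusted p = 0.000746) in F5, −1.01 (SE 0.09, BH-adjusted p = 6.9e-05) in G5 and −0.32 (SE 0.09, BH-adjusted p = 0.0251) in H7. Ctsz was also the 1 member of 27 called alike in all 3 clones, where 4.68% of all genes were. The call in H7 was lost without H7 passage 7 (adjusted p = 0.0953), H7 passage 9 (0.0994) or parental passage 7 (0.0682). It was also lost once the median change of chromosome 2 in H7, −0.13, was taken off (log2 fold change −0.19, adjusted p = 0.18). The same held with the passage number as a block, without the filter on low counts, and with only the groups compared in the fit. In all, the H7 call held in 15 of 22 alternative fits, and the F5 and G5 calls held in all 22.

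Because Ctsz was the member called in every clone in the main fit, its upstream sequence is shown. These are the 250 bases before its RefSeq start (chr2:174439040-174439289, minus strand, GRCm38.p6), 5′ to 3′; the core CACGTG, which would stand in capitals, was not in this window.
Ctsz: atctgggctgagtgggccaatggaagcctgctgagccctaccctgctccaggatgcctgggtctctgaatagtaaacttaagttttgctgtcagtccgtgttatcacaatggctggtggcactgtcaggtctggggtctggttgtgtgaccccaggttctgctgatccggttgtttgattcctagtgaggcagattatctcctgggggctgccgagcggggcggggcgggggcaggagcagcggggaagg

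Asah1, the acid ceramidase gene, rose in F5 and G5. Its libraries held 43.2, 48.9 and 41 CPM (parental), 55.9, 69.7 and 56.4 (F5), 53.3, 70.0 and 58.5 (G5) and 46.7, 49.4 and 44.2 (H7). The F5 and G5 values lay above all parental values, and those of H7 overlapped them. The log2 fold change was 0.32 (SE 0.10, BH-adjusted p = 0.0409) over the clones' mean, 0.45 (SE 0.12, BH-adjusted p = 0.0275) in F5, 0.45 (SE 0.12, BH-adjusted p = 0.0308) in G5 and 0.08 (SE 0.12, BH-adjusted p = 0.713) in H7. The call for the mean was lost without any one of 6 libraries: F5 passage 8, G5 passage 9, H7 passage 7 or 8, or parental passage 6 or 8. The calls in F5 and in G5 were lost without parental passage 6 or 8 and without F5 passage 8, or G5 passage 8 or 9, respectively.

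Scarb2, which encodes the membrane protein LIMP-2, a carrier of beta-glucocerebrosidase, held 53.4, 58.5 and 53.3 CPM (parental), 56.5, 64 and 61.4 (F5), 59, 64.9 and 65.7 (G5) and 66.6, 62.4 and 64.4 (H7). The G5 and H7 libraries lay above the parental ones by a small margin, and F5 passage 7 lay among them. The log2 fold change was 0.19 (SE 0.06, BH-adjusted p = 0.0458) over the clones' mean and 0.23 (SE 0.07, BH-adjusted p = 0.0453) in H7. Either call was lost when any one of 9 of the 12 libraries was left out.

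**Figure D2:**
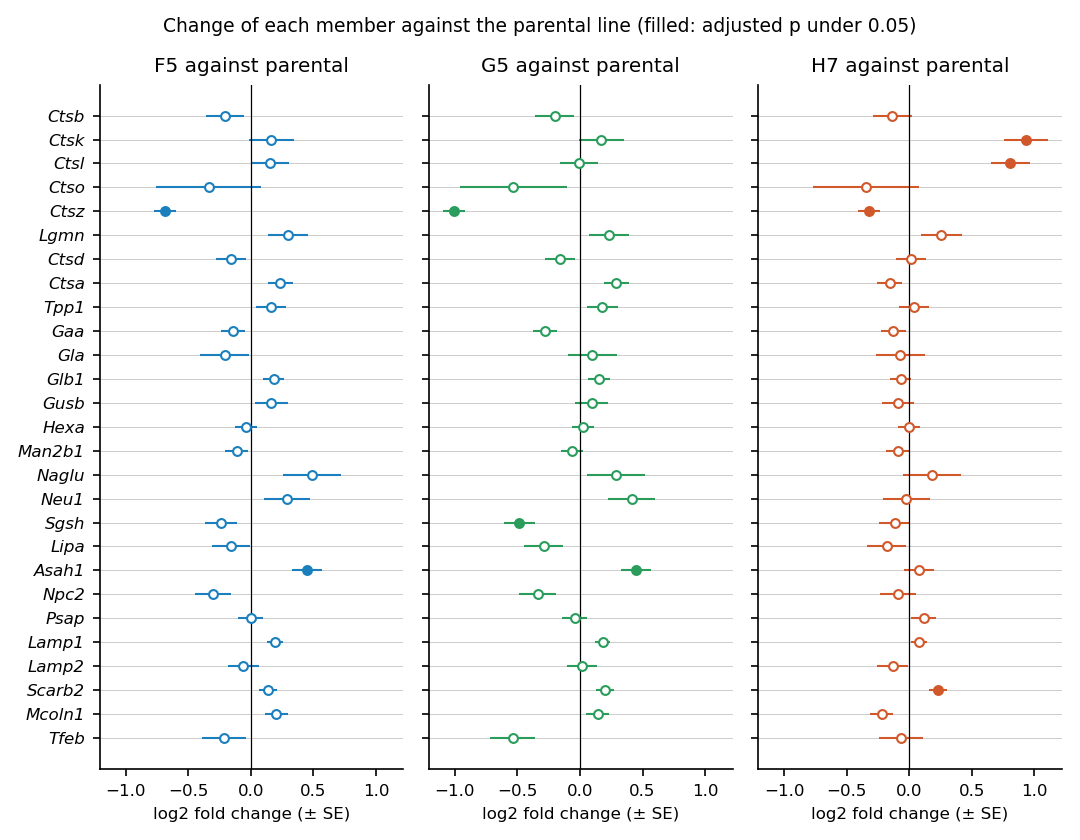
Log2 fold change (± SE) of each tested member in F5, G5 and H7 against the parental line, with genes in the order of their roles and filled points where the adjusted p was under 0.05. Ctsz is filled and below 0 in all 3 panels, and Ctsl and Ctsk are filled in the H7 panel alone.

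Taken clone by clone, F5 had 1 member higher and 1 lower (Asah1 and Ctsz), where 14.3% of all genes were called, 6.88% higher and 7.37% lower. G5 had 1 higher and 2 lower (Asah1; Ctsz and Sgsh), where 13.1% of all genes were called, 6.54% higher and 6.56% lower. H7 had 3 higher and 1 lower (Ctsl, Ctsk and Scarb2; Ctsz), where 19.6% of all genes were called, 9.64% higher and 9.92% lower. All these comparisons use the same 3 parental libraries. Sgsh encodes the heparan N-sulfatase and stood at 13.2, 17.8 and 12.7 CPM (parental), 11.9, 13.3 and 11.8 (F5), 9.69, 11.1 and 10.5 (G5) and 13, 13.6 and 13.8 (H7). Its G5 libraries lay below all parental ones, at a log2 fold change of −0.48 (SE 0.13, BH-adjusted p = 0.0278), and the call was lost without G5 passage 7, G5 passage 9 or parental passage 7. Tfeb also lay lower in every G5 library, at 5.52, 5.03 and 4.42 CPM against 5.68, 9.04 and 6.99 in the parental line, with a log2 fold change of −0.54 (SE 0.18, BH-adjusted p = 0.0739) that did not pass.

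In 2 of the 27 members, Ctsl and Ctsk, every H7 library lay above every other library, and in 2, Ctsa and Mcoln1, below. Of all genes 7.45% lay above and 7.88% below, so the members' shares were near those of all genes. Ctsl encodes cathepsin L, a broad endopeptidase that fibroblasts also secrete as a precursor, and lies on chromosome 13 between 64359337 and 64370890 on the minus strand (ENSMUSG00000021477). Its libraries held 335, 320.5 and 311 CPM in H7, against 177, 154 and 220.1 (parental), 173, 238 and 202 (F5) and 155, 214 and 181 (G5). The other lines overlapped. The log2 fold change against the parental line was 0.81 (SE 0.15, BH-adjusted p = 0.00404) in H7, 0.15 (SE 0.15, BH-adjusted p = 0.567) in F5 and −0.01 (SE 0.15, BH-adjusted p = 0.99) in G5.

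Ctsk encodes cathepsin K, a collagenase best known from osteoclasts and also found in fibroblasts, and lies on chromosome 3 between 95499256 and 95509362 on the plus strand (ENSMUSG00000028111), next to Ctss. It held 7.4, 8.69 and 8.77 CPM in H7, against 4.7, 4.42 and 3.91 (parental), 3.83, 5.33 and 5.4 (F5) and 3.82, 5.62 and 5.26 (G5). The lowest H7 library lay above the highest of the others. The log2 fold change was 0.93 (SE 0.18, BH-adjusted p = 0.00412) in H7, 0.16 (SE 0.18, BH-adjusted p = 0.605) in F5 and 0.17 (SE 0.18, BH-adjusted p = 0.596) in G5. The osteoclast markers gave at most 0.0398 CPM in any H7 library, with Acp5, Calcr, Dcstamp and Atp6v0d2 at 0 counts there. The H7 calls of both genes held in all 12 fits that left out 1 library. Both genes also stayed called in H7 with chromosome medians taken off, at log2 fold changes of 0.81 for Ctsl and 0.90 for Ctsk.

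The clones were then compared with each other. Between F5 and G5 none of the 27 members was called (edgeR, 0 called; 1 at an unadjusted p under 0.05; 0 with DESeq2), where 0.258% of all genes were called, 0.19% higher and 0.068% lower. The estimates ran from −0.31 for Gla (95% interval −0.69 to 0.08) to 0.32 for Ctsz (95% interval 0.15 to 0.50, adjusted p = 0.402), so differences of that size were not settled. Against H7, F5 had 3 members higher and 3 lower, where 9.45% of all genes were higher and 8.49% lower (17.9% called in all). G5 had 2 higher and 3 lower, where 8.88% were higher and 8.51% lower (17.4% called in all). Lower than in H7 were Ctsl, Ctsk and Ctsz in both. For F5 the log2 differences were −0.66 (SE 0.15, BH-adjusted p = 0.0124) for Ctsl, −0.77 (SE 0.18, BH-adjusted p = 0.0111) for Ctsk and −0.36 (SE 0.09, BH-adjusted p = 0.0153) for Ctsz. For G5 they were −0.81 (SE 0.15, BH-adjusted p = 0.00385) for Ctsl, −0.76 (SE 0.18, BH-adjusted p = 0.012) for Ctsk and −0.69 (SE 0.09, BH-adjusted p = 0.000411) for Ctsz. The F5 difference in Ctsl was lost without F5 passage 7, and that in Ctsz without F5 passage 7, F5 passage 9 or H7 passage 8.

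Ctsa and Mcoln1 were higher in F5 and G5 than in H7 without a call against the parental line. Ctsa encodes a carboxypeptidase that protects beta-galactosidase and sialidase from breakdown. It held 67.6, 70.1 and 69.2 CPM in H7, 73.7, 83.8 and 73 (parental), 80.4, 97.7 and 93.3 (F5) and 81.7, 103 and 96.8 (G5). All H7 libraries lay below all others, and those of F5 and G5 overlapped the parental values. The log2 difference was 0.39 (SE 0.10, BH-adjusted p = 0.0191) between F5 and H7 and 0.44 (SE 0.10, BH-adjusted p = 0.0102) between G5 and H7. The first was lost without F5 passage 8 or 9 or without any 1 of the H7 libraries.

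Mcoln1, the gene of the lysosomal calcium channel TRPML1, held 26.3, 25.6 and 28.5 CPM in H7, 29.5, 33.4 and 30.9 (parental), 35, 37.4 and 35.6 (F5) and 29.8, 37 and 36.6 (G5). Here too every H7 library lay below every other. The log2 difference was 0.43 (SE 0.09, BH-adjusted p = 0.0081) between F5 and H7 and 0.36 (SE 0.09, BH-adjusted p = 0.0189) between G5 and H7, the second lost without G5 passage 8 or 9 or H7 passage 7 or 8. Asah1 was higher in F5 than in H7 (0.38, SE 0.12, BH-adjusted p = 0.0486), a call lost in 9 of the 12 fits that left out 1 library, and reached 0.37 (SE 0.12, BH-adjusted p = 0.0514) between G5 and H7.

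Same-numbered passages of different clones deviated together, so the clone differences were also fitted with the passages as a block. With the passage number as the block, 5 members were called between F5 and H7, Asah1 being lost (adjusted p = 0.0657), and 5 between G5 and H7, where 17.8% and 17.0% of all genes were called. With the order of the passages as the block, which pairs the parental libraries too, 11 members were called between F5 and H7 and 10 between G5 and H7, where 31.3% and 29.6% of all genes were called. The members added in both were Npc2, at −0.22 and −0.26, and Neu1, at 0.30 and 0.43, with Asah1 called in both at 0.37 and 0.37. F5 added Naglu, Gusb and Glb1, and G5 added Gaa and Sgsh. F5 and G5 differed in 0 members under either block.

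**Figure D3:**
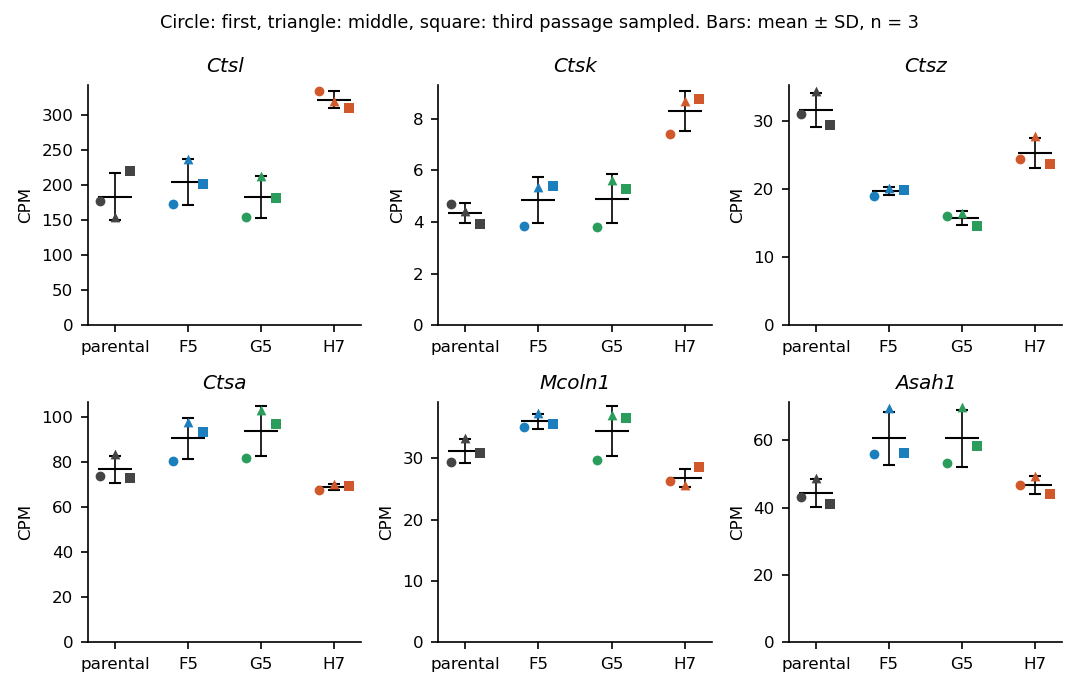
CPM of 6 members in each library, with the first, the middle and the third passage of a line as circle, triangle and square and bars for the mean ± SD (n = 3). Ctsl and Ctsk are highest in H7, Ctsa and Mcoln1 lowest in H7, Ctsz is lower in every clone than in the parental line, and Asah1 is higher in F5 and G5.

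The members were next compared along the passages. Within each line the middle of the 3 passages (passage 7 of the parental line, passage 8 of the clones) was compared with the mean of the 2 outer ones, in a fit with the line and the order of passages as terms. In the middle passage 15 of the 27 members were higher and 1 was lower, or 55.6% higher, where 16.5% of all genes were higher and 15.6% lower (32.1% called in all). The median log2 difference was 0.17 over the members and 0.02 over all genes. The comparison was taken up because earlier results of these data had shown that the middle passage stood apart. Leaving out 1 library at a time gave 11 to 16 members called.

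Promoters of members that hold the E-box core are shown for this comparison, since the TFE factors bind it. RefSeq promoters (GRCm38.p6, 250 bases before to 50 after the start) were at hand for 28 of the 31 members. The core CACGTG, on either strand, was in 12 of them, or 42.9%, against 8.09% of 27025 genes in the table. The longer GTCACGTG, on either strand and always overlapping a CACGTG, was in 9 members (Ctsa, Ctsd, Gla, Glb1, Lamp1, Lgmn, Mcoln1, Naglu and Sgsh), or 32.1%, against 2.55% of all genes. The palindrome TCACGTGA was in 4 members, or 14.3%, against 1.12%. The list holds many genes known as TFEB targets, so these shares are a property of the list and not a finding of the study. Windows from 6 of these promoters follow, 5′ to 3′ on the strand of the gene, with each CACGTG in capitals: 3 from members that rose in the middle passage (Naglu, Lgmn and Ctsd) and 3 from members that were not called (Glb1, Mcoln1 and Gla).
Naglu, chr11:101069993-101070052, plus strand: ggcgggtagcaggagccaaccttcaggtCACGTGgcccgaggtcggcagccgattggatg
Lgmn, chr12:102439110-102439169, minus strand: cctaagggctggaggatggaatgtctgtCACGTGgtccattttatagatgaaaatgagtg
Ctsd, chr7:142387892-142387951, minus strand: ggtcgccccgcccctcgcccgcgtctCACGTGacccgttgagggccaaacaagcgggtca
Glb1, chr9:114401002-114401061, plus strand: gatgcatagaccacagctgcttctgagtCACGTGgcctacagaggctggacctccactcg
Mcoln1, chr8:3500420-3500479, plus strand: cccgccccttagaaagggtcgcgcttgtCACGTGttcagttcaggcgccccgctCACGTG
Gla, chrX:134601168-134601227, minus strand: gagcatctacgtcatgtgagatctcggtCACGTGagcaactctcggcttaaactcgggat

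The first motif shown starts 75 bases before the RefSeq start in Naglu, 51 in Lgmn, 98 in Ctsd, 50 in Glb1, 73 in Mcoln1 and 196 in Gla. Ctsd held a further match 245 bases before the start, outside the window shown, and Mcoln1 a further one 45 bases before it. Of the tested members with GTCACGTG in the window, 4 of 9 were higher in the middle passage, and of those without it 9 of 16. For CACGTG the counts were 5 of 11 and 8 of 14. A match shows only that these letters are present.

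Among the cysteine cathepsins and legumain, 4 of the 6 tested rose in the middle passage. Ctso, a little-studied cathepsin, showed the largest difference of all members. It stood at 7.51, 22 and 10.1 CPM in the first, the middle and the third passage of the parental line, and in the same order at 6.93, 15.1 and 9.3 (F5), 5.97, 12.1 and 9.4 (G5) and 7.2, 13.9 and 10.1 (H7). The middle passage was the highest in every line, and the log2 difference was 0.92 (SE 0.10, BH-adjusted p = 0.000328). Lgmn, the asparaginyl endopeptidase that processes cathepsins, stood at 29.9, 42.5 and 32.5 CPM (parental), 38.3, 50.3 and 40.3 (F5), 38, 48.8 and 36.4 (G5) and 40.8, 47.2 and 37.4 (H7). Again each middle library exceeded both outer ones of its line, at a log2 difference of 0.37 (SE 0.05, BH-adjusted p = 0.000674). Ctsb followed at 0.28 (SE 0.06, BH-adjusted p = 0.00609). Ctsz passed at 0.14 (SE 0.05, BH-adjusted p = 0.0435), a call lost in 11 of 12 fits that left out 1 library, and Ctsl and Ctsk did not pass.

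All 3 aspartic and serine peptidases rose. Ctsd, the main aspartic protease of the lysosome, did so by 0.22 (SE 0.06, BH-adjusted p = 0.0142), lost without F5 passage 8 or G5 passage 8. Tpp1, a tripeptidyl peptidase, did so by 0.22 (SE 0.05, BH-adjusted p = 0.00912). Ctsa did so by 0.15 (SE 0.05, BH-adjusted p = 0.0346), lost in 8 of 12 such fits.

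All 4 lipid-handling members rose as well. Npc2, which hands cholesterol to the membrane transporter NPC1, stood at 121, 176 and 130.1 CPM (parental), 102, 129 and 115 (F5), 97.7, 128 and 112 (G5) and 126, 140.0 and 135 (H7). Its middle passage was the highest in every line, with the smallest margin in H7, and the log2 difference was 0.29 (SE 0.05, BH-adjusted p = 0.00347). Lipa, the acid lipase gene, reached 0.30 (SE 0.07, BH-adjusted p = 0.0105), and Asah1 0.24 (SE 0.05, BH-adjusted p = 0.00396). Psap reached 0.15 (SE 0.05, BH-adjusted p = 0.0435), lost in 8 of 12 fits that left out 1 library.

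Of the 9 glycosidases and sulfatase, 3 rose and 1 fell. Naglu, which trims heparan sulfate, stood at 13.6, 22.9 and 18.7 CPM (parental), 21.5, 33 and 23.2 (F5), 19.4, 29 and 19.4 (G5) and 19.9, 24.7 and 18.2 (H7). The middle library was the highest of each line, at a log2 difference of 0.51 (SE 0.07, BH-adjusted p = 0.00103). Neu1 reached 0.36 (SE 0.07, BH-adjusted p = 0.00392), and Gaa, which degrades glycogen, 0.20 (SE 0.04, BH-adjusted p = 0.00311). Gusb, the beta-glucuronidase gene, moved the other way. It stood at 39.3, 31.3 and 41.2 CPM (parental), 44.9, 36.6 and 43.7 (F5), 44.9, 34 and 40.3 (G5) and 37.6, 32.4 and 34.9 (H7), lowest in the middle passage of every line, at a log2 difference of −0.28 (SE 0.05, BH-adjusted p = 0.00216). The other 5, Gla, Glb1, Hexa, Man2b1 and Sgsh, did not pass.

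Among the membrane proteins Lamp2 rose, by 0.21 (SE 0.06, BH-adjusted p = 0.0175), a call lost without F5 passage 8. Lamp1, Scarb2 and Mcoln1 did not pass, and neither did Tfeb, at 0.13 (SE 0.13). Tfeb stood at 5.68, 9.04 and 6.99 CPM (parental), 5.67, 6.78 and 6.25 (F5), 5.52, 5.03 and 4.42 (G5) and 8.16, 6.22 and 6.41 (H7), so its middle passage was highest in the parental line and in F5 and lowest in H7.

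In 12 members the middle library lay above both outer ones in all 4 lines (Asah1, Ctsa, Ctsb, Ctso, Ctsz, Gaa, Lgmn, Lipa, Naglu, Neu1, Npc2 and Tpp1), and in Gusb it lay below them in all 4. Of all genes, 13.2% did the first and 13.3% the second. The median log2 difference over the 27 members was 0.21 in the parental line, with 22 members above 0, 0.25 in F5, with 26 above 0, 0.21 in G5, with 25 above 0, and 0.04 in H7, with 16 above 0. In the same order of lines, the middle library lay above both outer ones in 19, 22, 21 and 13 members. Of all genes, 43.8%, 38.4%, 39.1% and 34.2% did so. It lay below both in 4, 1, 2 and 9 members, against 40.7%, 37.7%, 36.8% and 32.2% of all genes. A fit with a separate middle term for each line, added after seeing the data, called 5 members higher (Ctso, Lgmn, Lipa, Npc2 and Sgsh) and 1 lower (Gusb) in the parental line, where 10.9% of all genes were higher and 12.5% lower. It called 0 members in F5, G5 and H7 (edgeR; 11, 8 and 1 at an unadjusted p under 0.05). In F5 and H7 it called 0.0% of all genes, and 0.551% in G5. The differences between the middle terms of 2 lines were called in 0 of 27 members for all 6 pairs of lines (edgeR; 4 members at an unadjusted p under 0.05 for H7 against the parental line, where 0.034% of all genes were called, 0.0204% higher and 0.0136% lower), so the lower median in H7 is not shown to differ.

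**Figure D4:**
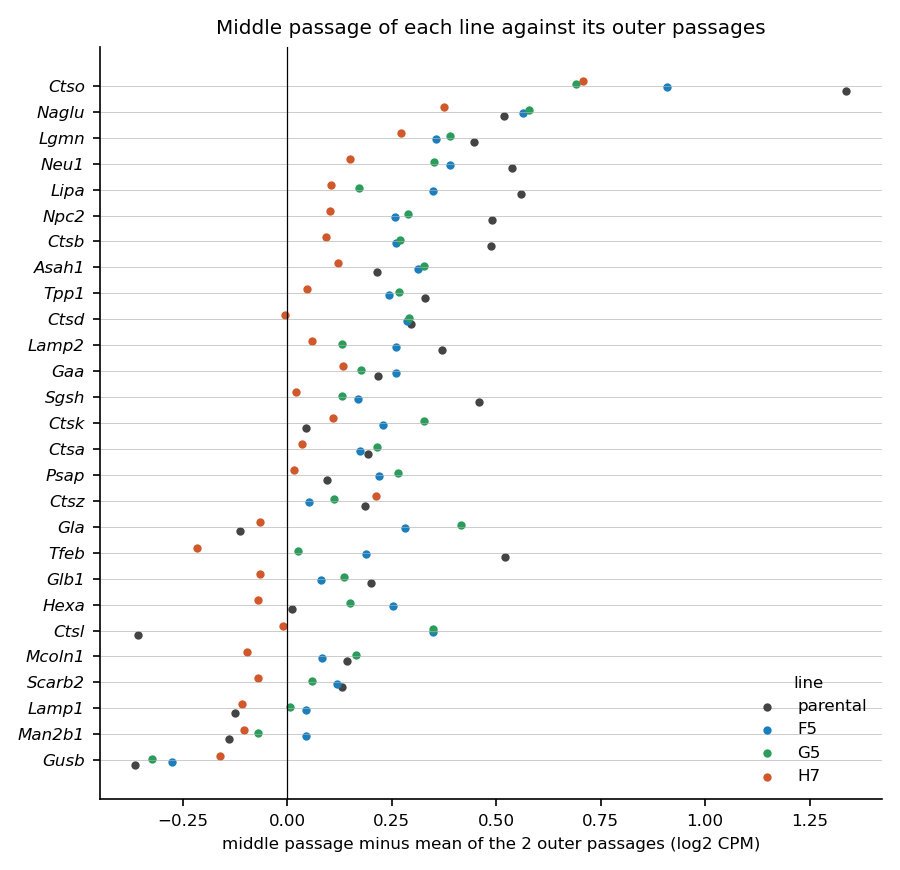
Log2 CPM of the middle passage minus the mean of the 2 outer passages of the same line, with 1 point per line for each tested member, ordered by the mean over lines. Ctso and Naglu lie to the right of 0 in all 4 lines, Gusb to the left in all 4, and the H7 points lie closer to 0 than those of the other lines for many members.

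Other measures moved with the middle passage in part. The library total was the highest of its line in the middle passage of the parental line, F5 and H7, at 24965904, 31329735 and 27840038 counts, and the lowest in G5, at 22088695. The mitochondrial share of the counts in the middle passage was 2.80% (parental), 2.33% (F5), 2.26% (G5) and 2.95% (H7), between the shares of the outer passages of each line. The part of these measures in the result was not tested.

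The third passage sampled was also compared with the first. No member was called (edgeR; 6 at an unadjusted p under 0.05; DESeq2 called Ctso, adjusted p = 0.0219), where 1.12% of all genes were called. The largest estimates were those of Ctso, 0.50 (SE 0.12, BH-adjusted p = 0.0766), and of the alpha-galactosidase gene Gla, 0.41 (SE 0.12, BH-adjusted p = 0.131). With the order of passages taken into the comparison of the clones with the parental line, the spread between libraries beyond these terms was 9.27% as a biological coefficient of variation, against 15.5% without, and 12 members were called in place of 3, as given above. The 7 higher were Naglu (0.33), Lgmn (0.27), Neu1 (0.24), Ctsk (0.41), Lamp1 (0.15), Asah1 (0.32) and Scarb2 (0.19). The 5 lower were Ctsz (−0.67), Ctso (−0.34), Sgsh (−0.27), Npc2 (−0.23) and Gaa (−0.18), each as a log2 fold change.

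**Figure D5:**
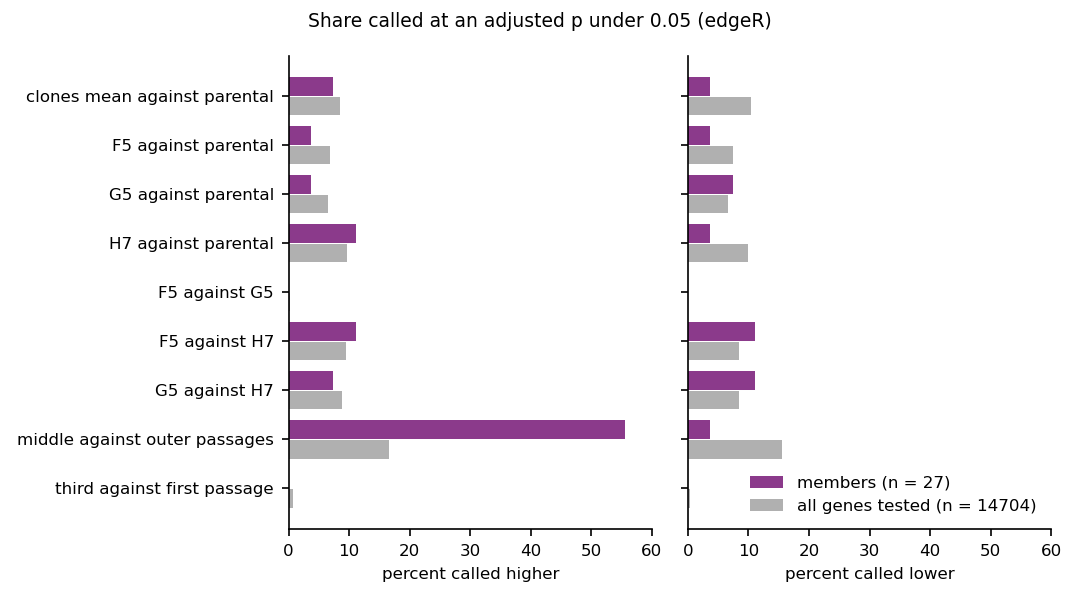
Percent of the 27 members and of all 14704 genes tested that were called higher (left) and lower (right) in each comparison at an adjusted p under 0.05. The bar of the members exceeds that of all genes most in the middle passage, where 55.6% of the members and 16.5% of all genes were higher.

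Further lists of lysosomal genes were read from the same fits, where 19.0% of all genes were called in the mean of the clones (8.55% higher, 10.5% lower) and 32.1% in the middle passage (16.5% higher, 15.6% lower). Of 28 other lysosomal hydrolases tested of 31 listed, 3 were higher and 1 lower in the mean of the clones. They were Scpep1, a serine carboxypeptidase (0.74, SE 0.13, BH-adjusted p = 0.00284), Naaa, an amidase of lipid amides (0.60, SE 0.12, BH-adjusted p = 0.00516), Aga, which removes glycans from asparagine (0.30, SE 0.09, BH-adjusted p = 0.0448), and Smpd1, the acid sphingomyelinase gene (−0.51, SE 0.15, BH-adjusted p = 0.0361). Taken clone by clone, 5 of the 28 were called higher in F5, 2 in G5 and 1 in H7, where 6.88%, 6.54% and 9.64% of all genes were. Lower were 0 in F5, 0 in G5 and 2 in H7, where 7.37%, 6.56% and 9.92% of all genes were. Smpd1 was thus not called in F5 or G5, and at most 1 of Scpep1, Naaa and Aga was called in H7. In the middle passage 15 of these 28 were higher and 1 was lower, with a median log2 difference of 0.19. Of 20 other membrane proteins tested of 23, 2 were higher (Ostm1 at 0.38 and Tmem192 at 0.38) and 2 lower (the peptide transporter gene Abcb9 at −1.21 and the nucleoside transporter gene Slc29a3 at −0.32) in the mean of the clones, and 6 were higher and 0 lower in the middle passage. In F5 0 of these 20 were called lower, so the falls of Abcb9 and Slc29a3 were not called there.

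Of 19 subunits of the proton pump tested of 20, 3 were higher and 1 lower in the mean of the clones, and 5 were higher and 1 lower in the middle passage, shares near the 19.0% and 32.1% of all genes called. The first were Atp6v1c1 (0.46, SE 0.06, BH-adjusted p = 0.000474), Atp6ap2 (0.42, SE 0.11, BH-adjusted p = 0.0229), Atp6v1g1 (0.19, SE 0.06, BH-adjusted p = 0.0363) and, lower, Atp6v0a1 (−0.55, SE 0.15, BH-adjusted p = 0.0248). In G5 0 of the 19 were called lower, where 6.56% of all genes were, so Atp6v0a1 was not called there. Atp6v1c1 lies on chromosome 15, where the median log2 fold change over all genes was 0.45 in H7, and its own log2 fold change was 0.34 in F5, 0.40 in G5 and 0.64 in H7. Of 13 genes of lysosomal enzyme sorting tested of 14, 2 fell in the mean of the clones. These were Sort1, the sortilin gene (−1.24, SE 0.37, BH-adjusted p = 0.0385), and Gnptab, which encodes subunits of the enzyme that makes the mannose 6-phosphate tag (−0.30, SE 0.09, BH-adjusted p = 0.0479). Taken clone by clone, 0 of the 13 were called lower in F5, 1 in G5 and 2 in H7, where 7.37%, 6.56% and 9.92% of all genes were. Sort1 and Gnptab were thus not called in F5. In the middle passage 3 of the 13 rose and 3 fell. None of the 3 cathepsin inhibitors tested of 5 was called in the mean of the clones.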

How the data were processed

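The authors deposited estimated counts and, in a second table, TPM for 48795 Ensembl genes in 12 libraries, per the file headers. The deposited estimated counts are not normalised: of the values over 0.5, 86.9% were whole to within 0.01. Each deposited TPM column sums to 1000000. The build is GRCm38, per the submitters' processing notes. No aligner, counter, annotation release or strand setting is given in the sources used here, so that genes with near-identical copies, overlapping genes and antisense genes are uncertain.

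Counts were rounded, filtered with filterByExpr (14704 genes) and tested with edgeR 4.0.16 (R 4.3.3): TMM factors, line as the term, all 12 libraries, 8 residual degrees of freedom, quasi-likelihood F-test, Benjamini-Hochberg adjustment over all genes, called under 0.05. Every adjusted p is from edgeR unless another tool is named. Standard errors come from the F statistic, and 95% intervals are 1.96 standard errors to each side. This is the multiplier of a normal distribution, so with few degrees of freedom the intervals are somewhat too narrow. The passage comparisons added the order of passages (6 residual degrees of freedom). DESeq2 1.42.0 and limma 3.58.1, on log2(TPM + 1) and log2(TPM + 0.1), were alternatives, beside other scalings, filters, blocks and fits without each library. Library totals from 22088714 to 31329755 counts set the depth. The members and lists were chosen with earlier results of these data known. All members were named, in full where called, and from each other list up to 4 genes with the smallest adjusted p in the mean of the clones.

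Deviations from the line means correlated between same-numbered passages of the clones at 0.153 to 0.501 in all 9 pairs, so the clone libraries pair by passage. Among the clones the passage number and the order of passages coincide, so these pairs cannot tell number from order. Between parental and clone libraries of the same passage number the correlations lay from −0.526 to −0.188, so that number does not pair them. By order of passage they lay from 0.0447 to 0.503 (median 0.398, 9 pairs), not over 0.1 in every pair, so the order is an alternative. No 2 libraries of a line agreed within sampling noise. Symbols and coordinates are those of GENCODE M21, counted from 1. On simulated counts of 14482 genes, the edgeR test of the clones' mean found 37 of 67 changes of 1.5-fold, 66 of 67 of 2-fold and 66 of 66 of 4-fold and made 5 false calls. For F5 against the parental line it found 28 of 67, 65 of 67 and 66 of 66 and made 3 false calls. The simulated libraries had the same spread for every gene and no passage effect, unlike the data.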

Additional observations from a re-analysis of the deposited data

Results flagged for a closer look

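Differences between clones under the same contrast with the parental line were flagged by the test of the difference itself. Between F5 and H7 the log2 differences were −0.66 for Ctsl, 0.39 for Ctsa, −0.36 for Ctsz, −0.77 for Ctsk, 0.43 for Mcoln1 and 0.38 for Asah1. Between G5 and H7 they were −0.81 for Ctsl, 0.44 for Ctsa, −0.69 for Ctsz, −0.76 for Ctsk and 0.36 for Mcoln1. The sign is that of F5 or G5 minus H7, and the libraries on which a call rested are named with each gene above. No group held the 4 samples that a check for a single sample far from the others needs.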

How the results depend on the processing

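No called direction was reversed in any of the alternatives run. In the order of the mean of the clones, F5, G5 and H7 against the parental line, F5 against G5, F5 against H7, G5 against H7, called alike in all clones, the middle passage and the third passage, the main counts of members called were 3, 2, 3, 4, 0, 6, 5, 1, 16 and 0. DESeq2 called 5 in the mean, 6 in G5 and 1 in the third passage. Without the filter H7 had 2, the third passage 1 and all clones alike 0. With chromosome medians removed all clones alike had 0. With the passage number as a replicate block the mean had 1, F5 1, H7 2 and all clones alike 0. That block called 15.9%, 12.8% and 16.7% of all genes in the mean, F5 and H7. With the order of passages as a replicate block the mean had 12, F5 9 and G5 12, where 33.4%, 28.7% and 26.8% of all genes were called. F5 against H7 had 11, G5 against H7 10 and all clones alike 2, where 31.3% and 29.6% of all genes were called in the first 2. Shares of all genes with DESeq2, without the filter and with only the groups compared are not given here. Neither replicate block changed the other counts by more than 1.5 times. With only the groups compared in the fit, the mean had 1, F5 1, G5 1, H7 2, G5 against H7 8 and all clones alike 0. Calls that also needed a 1.5-fold change left 1 in the mean, 1 in F5, 1 in G5, 2 in H7, 2 in F5 against H7, 3 in G5 against H7, 1 in the middle passage and 0 in all clones alike. A middle term of its own for each line, chosen after seeing the data, called 6 in the parental line and 0 each in F5, G5 and H7. Leaving out 1 library at a time gave 1 to 4 in the mean, 1 to 2 in F5, 1 to 4 in G5, 2 to 4 in H7, 0 to 0 in F5 against G5, 3 to 7 in F5 against H7, 4 to 8 in G5 against H7, 0 to 1 in all clones alike, 11 to 16 in the middle passage and 0 to 3 in the third. Fits with fewer groups or libraries have fewer degrees of freedom; the cause of the other shifts was not tested. Ctss and Ctsf failed the filter and were tested without it, with 0 calls (Ctsf in the mean of the clones, adjusted p = 0.059). The spread between libraries of a line was 15.5% as a biological coefficient of variation. On simulated counts a part of the changes of 1.5-fold was missed, so differences of that size or smaller can go uncalled.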

Other observations

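The control of the TFE factors and autophagy were read from the same fits, where 19.0% of all genes were called in the mean of the clones and 16.5% were higher in the middle passage. Of 17 genes of the TFE factors and their mTORC1 control tested of 19, 2 were higher and 1 lower in the mean of the clones. Rragd, a Rag GTPase that brings mTORC1 to the lysosome, had a log2 fold change of 0.95 (SE 0.17, BH-adjusted p = 0.00349), the Ragulator subunit gene Lamtor5 one of 0.36 (SE 0.08, BH-adjusted p = 0.00925) and Rptor, the gene of an mTORC1 subunit, one of −0.16 (SE 0.05, BH-adjusted p = 0.0488). In H7 alone 1 of the 17 was called higher and 0 lower, where 9.64% and 9.92% of all genes were, so Rptor was not called there. In the middle passage 4 of the 17 were higher and 0 lower: Mitf (0.55), Flcn (0.19), Fnip1 (0.22) and Zkscan3 (0.17), named after their values were seen.

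Of 21 autophagy genes, 4 were higher and 2 lower in the mean of the clones, where 8.55% of all genes were higher and 10.5% lower. Sqstm1, the cargo receptor p62, had a log2 fold change of 0.45 (SE 0.06, BH-adjusted p = 0.000605) and Atg9b, a membrane protein of the forming autophagosome, one of 1.84 (SE 0.25, BH-adjusted p = 0.000678). Lower were Ulk1, the kinase that starts autophagy, at −0.40 (SE 0.08, BH-adjusted p = 0.00538), and Wipi1, which binds phosphoinositides on the forming membrane, at −0.33 (SE 0.07, BH-adjusted p = 0.00634). In the middle passage 6 of the 21 were higher and 0 lower, where 16.5% of all genes were higher and 15.6% lower.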
